A study of Mus musculus with 17 samples.

Results

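The induced pluripotent stem (iPS) cell lines of this mouse RNA-seq series were compared with the mouse embryonic fibroblasts (MEFs) that stood for the somatic starting point of reprogramming. The comparison used the 2 samples labelled iPS and the 1 sample labelled MEF, 3 of the 17 samples in the series, chosen by their labels alone. The 2 iPS lines, iPS.1 and iPS.2, came from E13.5 MEFs of the cross tetO-4F2A x H3.3B-HA, in which doxycycline (2 µg/ml) switches on a single cassette that encodes the reprogramming factors Oct4 (gene Pou5f1), Sox2, Klf4 and c-Myc. Colonies with the morphology of embryonic stem cells (ESCs) were picked by hand, grown on MEF feeders with leukaemia inhibitory factor and collected within 20 passages. The MEF sample came from E13.5 embryos of H3.3B-HA mice and was grown in serum-containing medium, with no feeders named. All 3 carried the H3.3B-HA background and the strain label 129mix, whereas tetO-4F2A was stated for the iPS lines only. Whether the lines came from separate colonies of the same culture, and whether doxycycline was still present at collection, was not given in the sources used here. The iPS lines and MEFs therefore differed in the cassette, medium and feeders as well as in cell state, and these cannot be told apart. The ESC (2 samples), MASC (multipotent adult spermatogonial-derived stem cells, 6), SSC (cultured spermatogonial stem cells, 4) and HSC (cultured haematopoietic cells, 2) samples are quoted only for orientation.

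Fibroblasts are mesenchymal cells that secrete and remodel collagen-rich matrix, attach through integrins and contractile actin bundles, and keep a record of their position in the body as a code of Hox genes. Pluripotent cells grow instead as compact epithelial colonies held by E-cadherin and are governed by a mutually reinforcing circuit of transcription factors around Oct4, Sox2 and Nanog. Forced expression of the 4 factors in fibroblasts is known to shut the somatic programme, to drive a mesenchymal-to-epithelial transition and then to activate the endogenous pluripotency circuit.

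Oct4 and its relatives bind the octamer ATGCAAAT, and pluripotency genes are among their known targets, so the promoters of the pluripotency genes were searched for this octamer or for 7 of its letters (ATGCAAA or TGCAAAT) on both strands. The RefSeq promoter table (GRCm38.p6, 250 bases before to 50 after each annotated start) held 27 of the 40 pluripotency network genes described below. Among these, Nanog and Zfp42 carried a match, 7.41% of the genes in the table, against 7.69% of all genes in it. The whole octamer stood in the Zfp42 window alone among the 27 (3.7%), against 1.97% of all genes. Both windows are printed 5′ to 3′ on the strand of the gene, with the matching letters in capitals. Each match stands on the opposite strand, and in the windows printed it ends 145 bases before the start in Nanog (chr6:122707315-122707614, + strand) and 179 bases before it in Zfp42 (chr8:43306960-43307259, - strand). A further annotated start of Nanog lies upstream, and in its window (chr6:122707239-122707538) the same match ends 69 bases before that start. Of the reprogramming factors, which are not in this list, 3 were in the promoter table and Sox2 alone held a match. It is ATGCAAA and ends 93 bases before the start, in a window not printed here.
Nanog: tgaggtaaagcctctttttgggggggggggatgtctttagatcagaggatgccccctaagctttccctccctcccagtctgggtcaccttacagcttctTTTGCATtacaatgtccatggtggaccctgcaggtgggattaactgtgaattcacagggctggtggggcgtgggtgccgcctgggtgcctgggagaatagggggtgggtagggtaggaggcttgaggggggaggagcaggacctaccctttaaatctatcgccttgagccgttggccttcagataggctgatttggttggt
Zfp42: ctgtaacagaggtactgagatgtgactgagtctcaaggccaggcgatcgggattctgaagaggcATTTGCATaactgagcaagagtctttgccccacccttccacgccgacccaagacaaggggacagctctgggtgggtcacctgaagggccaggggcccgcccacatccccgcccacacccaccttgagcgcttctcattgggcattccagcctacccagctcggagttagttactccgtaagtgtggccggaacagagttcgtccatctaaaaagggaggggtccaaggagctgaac
A match is a description of the letters and not of binding. The frequency in the pluripotency genes was close to that of all genes, and 3 of the 21 fibroblast marker genes in the table (Col3a1, Col6a2 and Tnc) held a match as well. In 2 of the 21 (9.52%) it was the whole octamer, a larger share than in the pluripotency genes. Nanog and Zfp42 were both far higher in the iPS lines than in MEFs. Nanog (NM_028016) was measured at 153 FPKM (fragments scaled to transcript length and to the size of the library) in iPS.1, 174 in iPS.2 and 0.0392 in MEFs. Zfp42, also called Rex1, was measured at 386, 292 and 0.0376 FPKM in the same order.

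Values are FPKM as deposited, and differences are the mean of the 2 iPS lines minus the MEF value on the log2(FPKM + 1) scale, which understates the change of weakly expressed genes. Since MEFs were represented by 1 sample, no test between the cell types was possible and no p-value is given. A transcript was called higher or lower in iPS cells when the difference reached 2, a 4-fold change for abundant transcripts, and the error quoted is the value in each iPS line or the confidence bounds that Cufflinks attached to a value. The number of aligned reads was not part of the files. Coverage per FPKM unit, the only measure of depth in them, was 3.23-fold in iPS.1, 2.81-fold in iPS.2 and 2.52-fold in MEFs, within the range of 1.26 to 3.23 across the series. All 32659 RefSeq transcripts of 23889 genes with an estimate in the 3 samples were compared. Col1a1, the most characteristic fibroblast collagen, had no estimate in MEFs and was left out.

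Before the results, 2 properties of the MEF sample are given because they touch many values below. All 6 macrophage markers examined were higher in MEFs than in either iPS line. Their summed level was 3643 FPKM in MEFs, 6.84 in iPS.1, 12.8 in iPS.2, between 14.3 and 116 in ESCs and between 291 and 307 in HSC cultures. Lyz2 (lysozyme) made up most of it at 3336 FPKM, but the defining receptors Csf1r (64.4 FPKM), Emr1, which encodes F4/80 (19.97), and the pan-leukocyte Ptprc, which encodes CD45 (3.32) were measured too, each at least 2 units above the iPS lines. Markers of endothelium, skeletal muscle, nerve, keratinocytes and cartilage were low in MEFs, with summed levels between 0.0548 and 18.7 FPKM. The part of macrophage RNA in the other differences was not tested. The MEF sample also showed Xist, the RNA that coats the inactive X chromosome, at 14.97 FPKM, with the Y-linked Ddx3y and Eif2s3y listed at 0. The iPS lines had Xist at 0.0438 and 0.0230 FPKM and Eif2s3y at 51.3 and 47.1 FPKM. The MEF library thus had a female pattern and both iPS libraries a male pattern, and sex cannot be told apart from cell state. The MEF sample was therefore not the culture that the lines came from. Words such as rose and fell below describe differences between samples and not a change followed over time.

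The transcriptomes of the iPS lines and MEFs were far apart, and about as many transcripts were called in each direction. Of the transcripts compared, 1680 (5.14%) were called higher in iPS cells and 1781 (5.45%) lower. In 1394 and 1468 of these, each iPS line was separately past the threshold. The median absolute difference from MEFs was 0.75 among the 6634 transcripts at 5 FPKM or more in the 3 samples, against 0.16 between the 2 iPS lines. The same transcripts had a median difference of 0.24 in favour of iPS cells, and 0.15 after quantile normalization, so small positive differences should be read against this shift. Counted with 1 transcript per gene, the one with the highest level in the 3 samples, 139 genes stood at 10 FPKM or more in both iPS lines and under 0.1 in MEFs, and 127 showed the opposite. Those limits were chosen after the values were seen. The scatter plot of all transcripts shows the pluripotency and epithelial genes along its left edge and the fibroblast genes along its lower right.

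**Figure D1:**
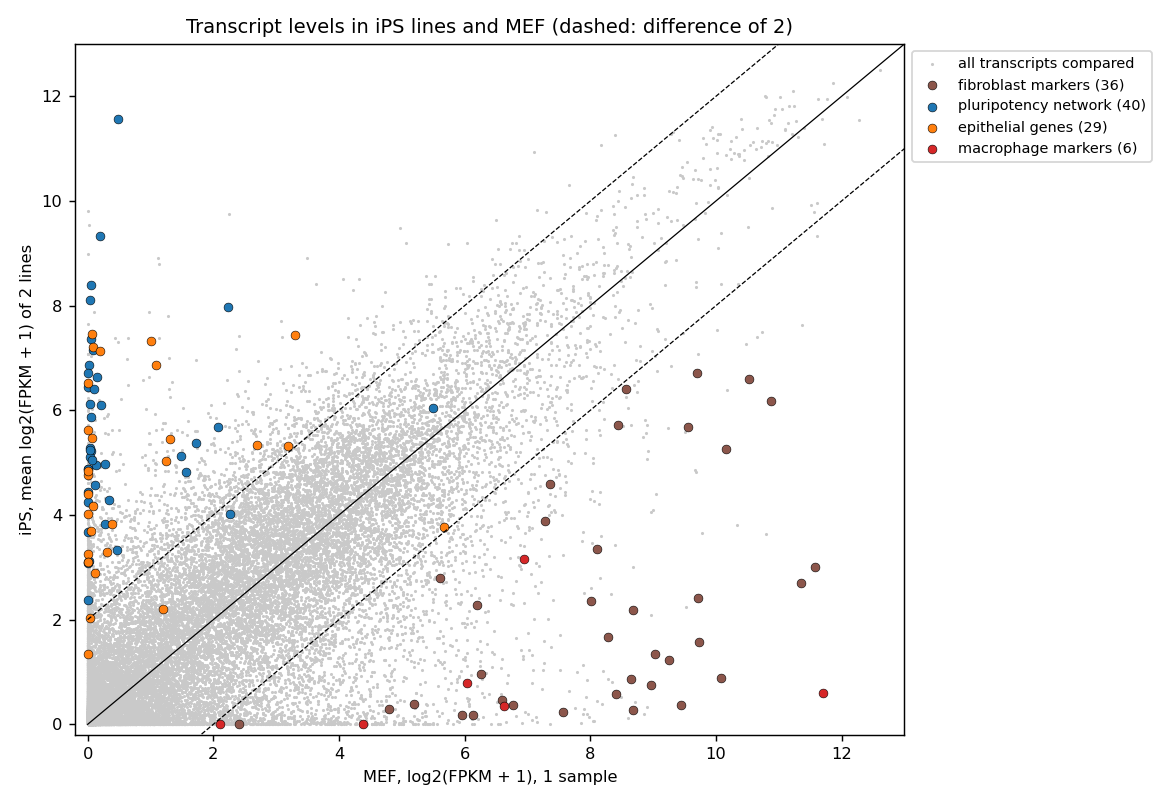
Mean log2(FPKM + 1) of the 2 iPS lines against log2(FPKM + 1) in the 1 MEF sample, with 1 point per transcript, the line of equality and dashed lines at a difference of 2. Of the coloured lists, 38 of 40 pluripotency and 25 of 29 epithelial genes lie above the upper dashed line, and all 36 fibroblast and all 6 macrophage markers lie below the lower one.

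Of the 4 reprogramming factors, Pou5f1 and Sox2 were called higher in iPS cells, whereas Klf4 and Myc were not called. Pou5f1 (NM_013633), the POU-domain factor at the centre of the circuit, was at 998 FPKM in iPS.1, 751 in iPS.2 and 3.74 in MEFs (Cufflinks bounds 3.20 to 4.27), a difference of 7.52. Sox2, its DNA-binding partner, was at 196, 141 and 0.560 FPKM, a difference of 6.74. Both iPS lines stood far above MEFs for these factors and close to the ESC lines, where Pou5f1 was at 874 and 755 FPKM and Sox2 at 162 and 126. Klf4, a Krüppel-like factor that fibroblasts also express, was at 60.9 and 62.4 FPKM in the iPS lines against 40.6 in MEFs, a difference of 0.59. Myc, which drives proliferation, was lower in both lines at 6.35 and 10.5 FPKM against 30.3 in MEFs, and its difference of -1.77 did not reach the threshold. Transcripts of the cassette and of the endogenous genes share coding sequence and cannot be told apart in these values.

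Nearly the whole pluripotency network was higher in both iPS lines. Of its 40 genes, 38 were called higher, none lower, and each of the 38 passed the threshold in both lines separately. With 1 transcript per gene, 5.72% of all genes were called higher and 6.02% lower, and the count of each list below is to be read beside these shares. The median difference of the list was 4.93, against 0.00 over all genes. As the lists were chosen with earlier results of these data known, such counts and medians are descriptions and not independent support. In MEFs, 33 of the 40 were under 1 FPKM, too low to be called lower, and 25 under 0.1, whereas 35 were at 10 FPKM or more in both iPS lines.

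Among the transcription factors, 16 of 18 were called higher. Nanog, which stabilizes the ground state, differed by 7.30. Esrrb, an orphan nuclear receptor that supports self-renewal, was at 126 and 105 FPKM against 0.0175 in MEFs. Utf1, a chromatin-associated factor of pluripotent cells, reached 331 and 231 FPKM against 0.0209. These MEF values lie within Cufflinks bounds that start at 0, so they cannot be told from 0. Tfcp2l1, Nr0b1, Sall4, Zscan10 and Sox15 were each at 14 FPKM or more in both lines and under 0.1 in MEFs. The Krüppel-like factor Klf5 was called (difference 3.66). Tbx3, a T-box factor of self-renewal, and Klf2 differed by 1.74 and 0.54 and were not called. MEFs contained Tbx3 at 3.82 FPKM and Klf2 at 44.2 FPKM. Mybl2, a cell cycle regulator of transcription, was at 286 and 217 FPKM against 3.70 in MEFs.

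All 13 chromatin and RNA regulators of the list were called higher. Dppa5a, an RNA-binding protein of pluripotent cells, had the largest increase of any transcript named here: 3504 FPKM in iPS.1 and 2609 in iPS.2 against 0.405 in MEFs (bounds 0.115 to 0.695), a difference of 11.07. Dppa2, Dppa3 and Dppa4 had differences of 5.82, 6.45 and 6.71, and Dppa3 was listed at 0 in MEFs. Lin28a, which blocks maturation of let-7 microRNAs, was at 88.5 and 78.9 FPKM against 0.0673. Its paralogue Lin28b was also called, though at a low level (4.44 and 3.88 FPKM against 0.00771).

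All 9 signalling genes were called higher. Tdgf1, which encodes the Nodal co-receptor Cripto, was at 783 and 532 FPKM against 0.145 in MEFs, a difference of 9.14. Nodal itself was at 26.7 and 30.5 FPKM and listed at 0 in MEFs, and the growth factor Fgf4 was at 86.9 and 53.4 against 0.0213. The Nodal antagonists Lefty1 and Lefty2 set the lines apart: Lefty1 was at 42.7 FPKM in iPS.1 and 17.4 in iPS.2, and Lefty2 at 32.997 and 10.3, both still well above MEFs. Otx2, a factor of the primed state, also stood higher in iPS.1 (13.6 FPKM) than in iPS.2 (3.89 FPKM). Compared with the ESC lines, 39 of the 40 genes in iPS.1 and all 40 in iPS.2 lay within 2 log2 units of the ESC mean. The dot plot of these genes shows the iPS and ESC symbols overlapping on the right and the MEF symbols on the left for nearly every gene.

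**Figure D2:**
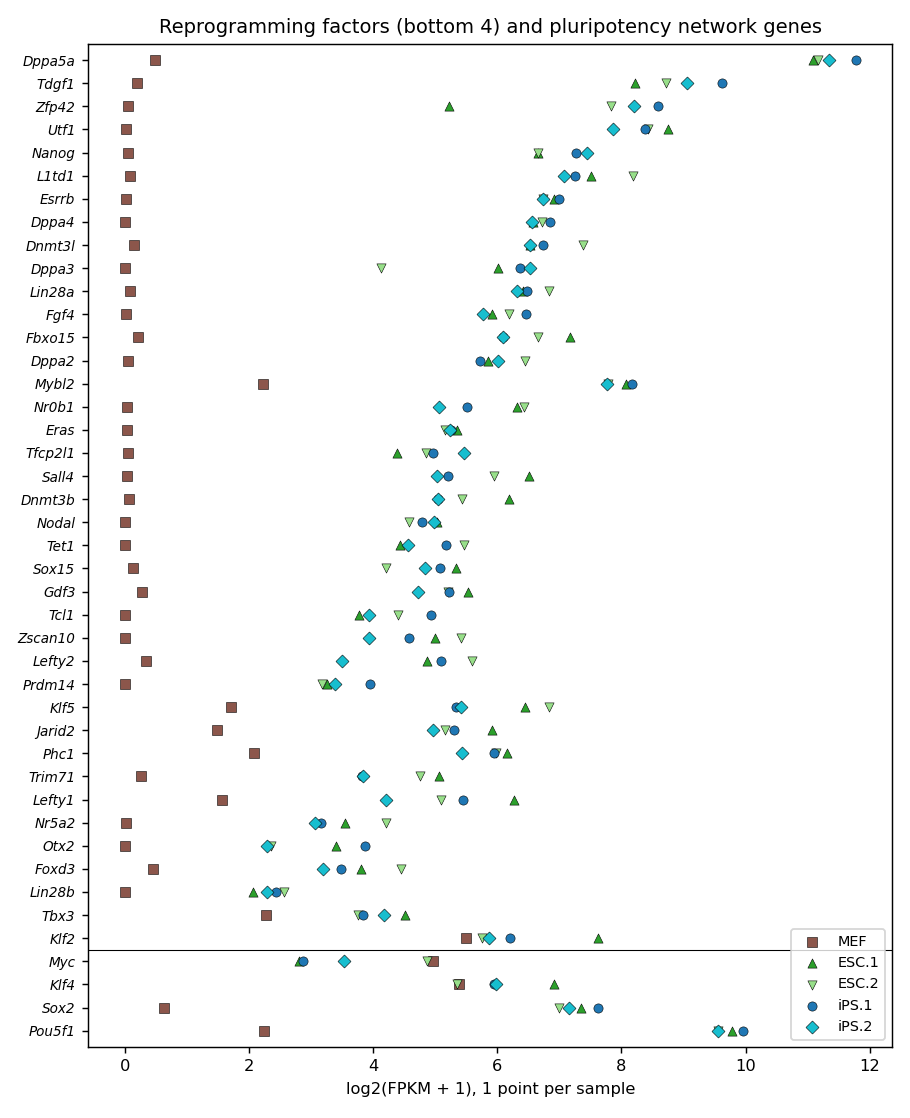
Level of the 4 reprogramming factors (below the line) and 39 pluripotency network genes in MEFs, both ESC lines and both iPS lines, with 1 point per sample on a log2(FPKM + 1) axis. The MEF squares overlap the other symbols only for Klf4 and Myc, and come near them for Klf2 and Tbx3.

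Fibroblast genes showed the mirror image. All 36 fibroblast markers were called lower in iPS cells, none higher, with a median difference of -5.88. In 33 of them each line was separately past the threshold. Expressed as a percentage of the MEF level, the median marker stood at 0.296% in iPS.1 and 0.917% in iPS.2. The level in a culture falls alike when fewer cells express a gene and when each cell holds less of its RNA, and these cannot be told apart in bulk samples.

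The 24 matrix genes fell furthest, with a median difference of -6.56. Col1a2, a chain of type I collagen, was at 1.45 FPKM in iPS.1 and 25.1 in iPS.2 against 3059.6 in MEFs. Col3a1, the fibrillar collagen of connective tissue, was at 0.409 and 1.45 FPKM against 1080.2, a difference of -9.19. The lines were close for the matricellular protein periostin (Postn, 0.206 and 0.396 against 694) and the small proteoglycan lumican (Lum, 0.124 and 0.133 against 61.5). Lox, the enzyme that crosslinks collagen, fell from 407 FPKM in MEFs to 0.0368 and 0.403. Fibronectin (Fn1) was the exception in size: it stayed at 80.7 and 86.8 FPKM against 377, the smallest difference of the list at -2.16, and both ESC lines held a similar level (98.4 and 43.8 FPKM).

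Of the 12 surface and cytoskeletal markers, the glycoprotein Thy1, which reprogramming studies use to follow loss of fibroblast identity, was at 2.03 and 1.96 FPKM against 849.9 in MEFs. The platelet-derived growth factor receptor Pdgfra was at 0.190 and 0.456 against 35.7. The intermediate filament vimentin (Vim) remained at 39.001 and 128 FPKM against 1888. The genes in which iPS.2 alone stayed within 2 units of MEFs included Tagln and Ctgf. The smooth muscle protein Tagln was at 32.3 FPKM in iPS.1 and 326 in iPS.2 against 826, and the matricellular protein Ctgf at 25.3 and 105 against 345. In iPS.1, 25 of the 36 genes were under 1% of the MEF level and 1 exceeded 10%, compared with 18 and 10 in iPS.2. The summed level of the list was 309 FPKM in iPS.1 and 1248 in iPS.2, and 1870.0 and 691 in the ESC lines, so iPS.1 was the lowest of these 4 lines. In iPS.1, 31 of the 36 genes were below both ESC lines and none above both, and in iPS.2 the counts were 18 and 7. MEF feeders grew beside the iPS lines and carry the same markers, and their part in the residual values was not tested.

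**Figure D3:**
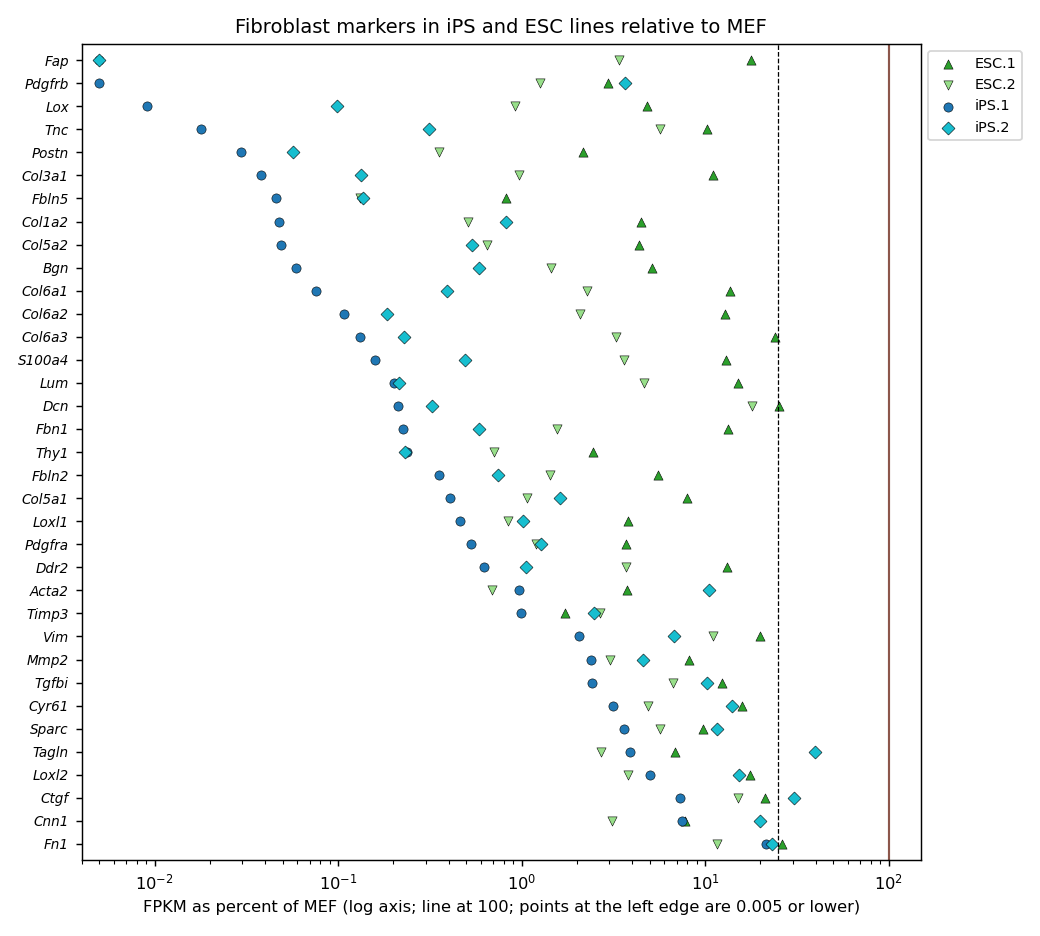
FPKM of 35 fibroblast markers in the 2 iPS and 2 ESC lines as a percentage of the MEF value on a log axis, with a solid line at 100% and a dashed line at 25%. Values of 0.005% or lower are drawn at the left edge. The iPS.1 points stay to the left of 25% for all 35 genes drawn, and the iPS.2 points of Tagln and Ctgf lie to its right.

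Transcription factors of the mesenchyme fell with the genes of the matrix. Of 23, 16 were called lower and none higher, with a median difference of -2.46. Twist2 was the most changed, at 0.0696 and 0.608 FPKM against 103 in MEFs. The limb and body wall factors Prrx1 (31.4 FPKM in MEFs), Osr1 (37.9) and Tbx15 (36.4) were each under 1 FPKM in both iPS lines. The classical inducers of epithelial-to-mesenchymal transition were all called: Snai1 differed by -3.28, Snai2 by -3.82, Twist1 by -4.29, Zeb1 by -2.41 and Zeb2 by -2.53. Those not called were mostly weak in MEFs already, such as Runx2 (2.55 FPKM) and Foxf2 (1.11 FPKM). Msx2 was above MEFs in a single line, at 0.376 FPKM in iPS.1, 8.12 in iPS.2 and 1.71 in MEFs.

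Transforming growth factor-β (TGF-β) signalling maintains the mesenchymal state and is known to oppose reprogramming. Of the 14 pathway genes, 7 were called lower and none higher. Among the ligands, Tgfb1 was at 1.53 and 4.16 FPKM against 63.5 in MEFs and Tgfb3 at 0.204 and 2.23 against 80.2, and the activin subunit Inhba differed by -4.21. Of the receptors, Tgfbr2 fell to 0.0144 and 1.94 FPKM from 54.04 and the co-receptor Tgfbr3 differed by -3.81, whereas Tgfbr1 was of like level in all 3 samples (4.48, 5.71 and 6.87 FPKM). The latent TGF-β binding proteins Ltbp1 and Ltbp2 differed by -3.39 and -6.10. The inhibitors Smad7 and Skil had differences of 1.19 and 1.14, below the threshold. Tgfb2 separated the lines, at 0.288 FPKM in iPS.1 and 9.03 in iPS.2 against 4.50 in MEFs.

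Epithelial genes rose. Of 29 junction, keratin and regulator genes, 25 were called higher and none lower, with a median difference of 4.00. Only 9 of the 29 reached 1 FPKM in MEFs, so most could not be called lower. E-cadherin (Cdh1), the adhesion molecule of pluripotent colonies, was at 102 and 131 FPKM against 1.11 in MEFs. Epcam, a surface glycoprotein of epithelia and pluripotent cells, was at 188 and 162 against 0.0431, a difference of 7.39. The tight junction claudins Cldn4, Cldn6 and Cldn7 were called at differences of 7.12, 6.52 and 4.76, and the splicing regulator Esrp1, which enforces epithelial isoforms, at 4.00. In all of these the lines lay close together relative to their distance from MEFs. The 4 genes not called included occludin (Ocln), which was just under the threshold at 1.99, and Cdh3, which encodes P-cadherin and was the only one higher in MEFs (50.03 FPKM against 13.8 and 11.6).

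The cadherins of mesenchyme moved the opposite way to Cdh1. Cdh2 (N-cadherin) was at 0.638 and 1.47 FPKM against 21.9 in MEFs, and Cdh11, the cadherin of fibroblasts and bone-forming cells, at 0.911 and 1.10 against 221. Of the 27 focal adhesion, annexin and actin genes, which include these cadherins, 19 were called lower and none higher. The collagen receptor subunit Itga11 differed by -5.16, the myosin light chain Myl9 by -4.92 and caveolin-1 (Cav1) by -3.74. The β1 integrin subunit Itgb1 remained at 44.5 and 112 FPKM against 294. This list depended on the line examined: each line separately was past the threshold in 12 of the 27 genes, and the count was 12 with iPS.2 alone and 23 with iPS.1 alone.

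The 2 iPS lines differed from each other in these genes. With 1 transcript per gene, 161 genes (0.674%) were at least 2 units higher in iPS.2 than in iPS.1 and 67 (0.28%) at least 2 units lower. All 27 adhesion and actin genes were higher in iPS.2 than in iPS.1, 7 of them by at least 2 units, with a median difference of 1.29. Among the fibroblast markers the same held for 34 of 36, 7 by at least 2 units. Over all genes, 11344 of 23889 were higher in iPS.2 than in iPS.1. The tropomyosin Tpm1 (NM_024427) was at 10.7 FPKM in iPS.1 and 193 in iPS.2 against 471 in MEFs, smooth muscle actin (Acta2) at 11.2 and 121 against 1148, and annexin A1 (Anxa1) at 8.45 and 107 against 262. For these contractile and membrane genes iPS.2 lay between iPS.1 and MEFs.

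Simple epithelial keratins were also higher in iPS.2, although MEFs hardly expressed them. Krt8 was at 39.1 FPKM in iPS.1, 487 in iPS.2 and 0.150 in MEFs. Its partner Krt18 was at 46.6, 543 and 1.02, and Krt19 at 14.7, 66.7 and 1.37. The ESC lines had Krt8 at 31.3 and 25.9 FPKM and Krt18 at 31.2 and 22.8, below either iPS line. The pluripotency list tended the other way and by less, with 31 of 40 genes not higher in iPS.2, a median difference of -0.27 and no gene 2 units apart. That count is to be read beside the 11344 of 23889 genes that were higher in iPS.2. With 1 library per line, a difference between lines has no replicate check. The strip plot of the difference between the lines shows the adhesion and fibroblast lists displaced to the right of 0 and the pluripotency and glycolysis lists slightly to its left.

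**Figure D4:**
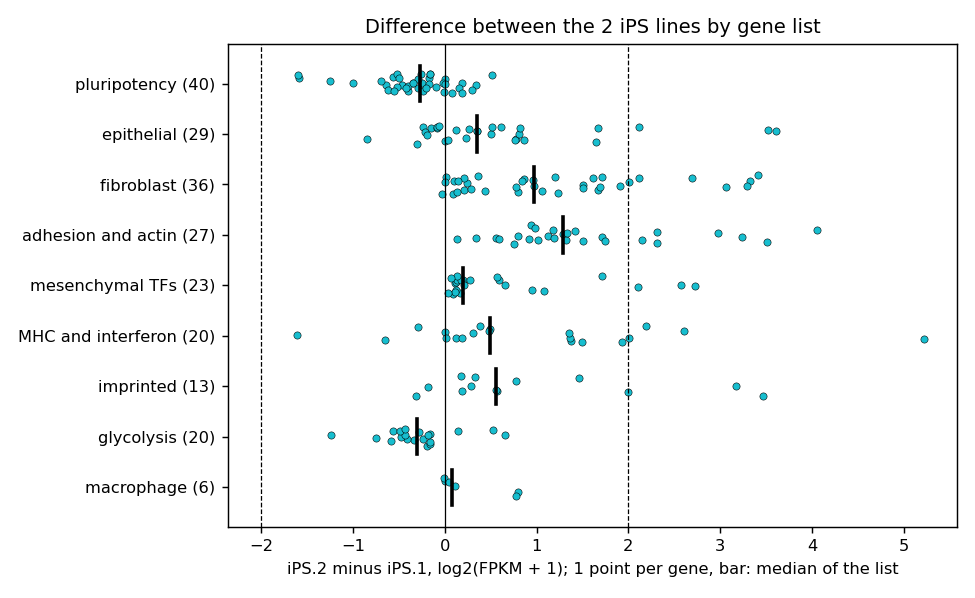
Difference between iPS.2 and iPS.1 on the log2(FPKM + 1) scale for each gene of 9 lists, with 1 point per gene, a bar at the list's median and dashed lines at 2 units. The median is 1.29 for adhesion and actin genes, 0.97 for fibroblast markers and -0.27 for the pluripotency network.

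The Hox genes that MEFs expressed were at or near 0 in both iPS lines. These genes lie in 4 clusters and are expressed in an order that follows the body axis. Of 39 genes measured, 13 were called lower in iPS cells and none higher, and 37 were under 1 FPKM in both lines. MEFs expressed 25 of the 39 at 1 FPKM or more, although none was abundant. The called genes were Hoxb2, Hoxb3, Hoxb4, Hoxb6, Hoxb7, Hoxb8 and Hoxb9 (7 of 10 in cluster b), Hoxc6, Hoxc8, Hoxc9 and Hoxc10 (4 of 9 in cluster c), and Hoxd4 and Hoxd8 (2 of 9 in cluster d). The highest in MEFs were Hoxb9 at 19.5 FPKM, Hoxc6 at 19.2 and Hoxc8 at 16.003, which were at 0.245, 0.0148 and 0.0321 FPKM in iPS.1 and 0.576, 0.102 and 0.0431 in iPS.2. None of the 11 genes of cluster a was called. Their MEF levels did not exceed 2.63 FPKM, so on the log2(FPKM + 1) scale they could not fall by 2 and could not be called lower. The 6 at 1 FPKM or more in MEFs stood at a median of 0.759% of the MEF level in iPS.1 and 3.01% in iPS.2. The same medians in cluster b were 0.348% and 1.10%.

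Imprinted genes, which are expressed from 1 parental allele, were called in both directions. The maternally expressed RNAs of the Dlk1-Dio3 domain on chromosome 12, whose silencing has been studied as a defect of iPS lines, were called lower. Meg3 (also called Gtl2; NR_027652, mm9 chromosome 12, 110779206 to 110809939) was at 5.84 and 6.09 FPKM in the iPS lines, 283 in MEFs and 139.6 and 56.5 in ESCs. Rian was at 6.89 and 6.83 FPKM against 119 in MEFs and 75.5 and 51.1 in ESCs. Mirg was at 0.902 and 0.922 against 15.6 in MEFs and 15.7 and 7.77 in ESCs. All 3 RNAs were nearly equal in both iPS lines and lower there than in MEFs and in either ESC line. Their summed level with the other 3 genes of the domain, 14.4 and 18.6 FPKM in the iPS lines, fell within the range of the 6 MASC lines (5.50 to 105). The paternally expressed Dlk1 was at 0.0819 FPKM in iPS.1 and 3.29 in iPS.2 against 8.02 in MEFs. DNA methylation of the domain was not measured here.

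Of 13 other imprinted genes, 3 were called higher and 5 lower, beside 5.72% and 6.02% of all genes. The higher ones were Peg10, a retrotransposon-derived gene of placenta (63.4 and 255 FPKM against 1.45), Phlda2 (44.7 and 39.4 against 0.0749) and Snrpn (52.1 and 41.7 against 8.76). The lower ones were Igf2, Igf2r, Grb10, Plagl1 and Ndn, with differences from -3.50 for Ndn to -2.07 for Igf2r, and each line separately was past the threshold for Ndn alone. The growth factor Igf2 (NM_001122737) and the neighbouring non-coding RNA H19 separated the lines. Igf2 was at 4.88 FPKM in iPS.1, 64.1 in iPS.2 and 143 in MEFs, and H19 at 58.2, 534 and 709. The ESC lines had Igf2 at 25.4 and 6.05 FPKM and H19 at 76.8 and 13.7.

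Enzymes that add or oxidize DNA methylation were mostly higher. Of 8 genes, 6 were called higher and none lower. The de novo methyltransferase Dnmt3b was at 32.2 and 31.9 FPKM against 0.0522 in MEFs, and its cofactor Dnmt3l at 105 and 91.1 against 0.109. The dioxygenases that oxidize methylcytosine were split, with Tet1 and Tet2 called (differences 4.87 and 2.23) and Tet3 at 0.810 and 1.52 FPKM against 3.16 in MEFs. The maintenance factor Uhrf1 differed by 3.05 and the maintenance enzyme Dnmt1 by 1.34, the latter not called.

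Of 15 lamin, histone variant and Polycomb genes, 7 were called higher and 1 lower. A histone variant gene among the 7 differed by 2.10 in the transcript used and by 0.95 summed over its transcripts. The nuclear lamins moved in opposite directions: Lmna, which stiffens the nucleus of differentiated cells, was at 10.3 and 23.3 FPKM against 173, and Lmnb1 at 169 and 168 against 16.7. Polycomb repressive complex 2, which deposits the K27me3 mark, was higher in its subunits Ezh2 (3.34), Suz12 (3.31) and Eed (2.59). Cbx7, the reader of that mark in pluripotent cells, was at 55.9 and 51.1 FPKM against 1.29. The genes of histone H3.3, H3f3a and H3f3b, were not called (differences 0.88 and 0.17).

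Of 13 cell cycle genes, 4 were called lower and 1 higher. Among the 7 inhibitors, 3 were called lower. Cdkn1a (p21) was at 28.05 and 44.9 FPKM against 239.5 in MEFs, and Cdkn2c differed by -2.47. Cdkn2b was past the threshold on the mean only, at 2.997 and 19.9 against 56.9. The Ink4a/Arf transcript Cdkn2a remained at 14.5 and 31.8 FPKM against 70.8 and was not called. Cyclin E1 (Ccne1) was higher at 108 and 111 against 17.5, and cyclin D2 (Ccnd2) lower at 0.636 and 2.95 against 87.3, while cyclins D1 and D3 were not called.

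Mouse pluripotent cells are known to break down threonine and glycine for one-carbon units. Of 12 glycine and one-carbon genes, 5 were called higher and none lower. Tdh, threonine dehydrogenase, which starts this breakdown, was at 146 and 117 FPKM against 0.0358 in MEFs. Gldc and Amt, of the glycine cleavage system, were at 106 and 87.4 against 0.0728, and at 56.97 and 49.5 against 1.36. The serine synthesis enzyme Phgdh was of like level in all 3 (110.4, 99.8 and 127 FPKM). Of 20 glycolysis genes, 19 were above MEFs but only 5 were called: the glucose transporters Slc2a1 and Slc2a3, Hk2, Ldhb and Pdk1. Slc2a3 differed most, at 352 and 554 FPKM against 1.21. The median difference of the glycolysis list, 1.16, compares with the shift of 0.24 in expressed transcripts.

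Genes of antigen presentation were lower in part. Of 20 MHC and interferon genes, 7 were called lower, in each line separately for 4 of them, and 1 was called higher. β2-microglobulin (B2m), the light chain of MHC class I, was at 10.5 and 69.1 FPKM against 818 in MEFs, and H2-D1 at 8.55 and 37.4 against 265. HSC cultures held more still, with B2m at 1683 and 1255 FPKM. The gene called higher was Ifitm1, an interferon-induced membrane protein that stem cells express constitutively, at 299 and 97.7 against 4.29. Isg15, a ubiquitin-like protein induced by interferon, differed most between the lines, at 0.534 FPKM in iPS.1 and 56.2 in iPS.2 against 188 in MEFs. Macrophages express these genes too. The part of the macrophage markers of the MEF sample in these values was not tested.

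Of 12 germ cell genes, 7 were called higher, none lower, all from MEF values under 0.2 FPKM. As all 12 were under 1 FPKM in MEFs, none could be called lower. Tex19.1, a retrotransposon suppressor shared by germ and pluripotent cells, was at 56.9 and 58.7 FPKM, and the germ cell RNA helicase Ddx4 at 10.8 and 14.3. The summed level of the list, 118 and 121 FPKM, stood beside 117 and 228 in the ESC lines and was below that of the 4 SSC cultures (820.0 to 1218). None of the 12 early lineage genes, from Gata4 of endoderm to Pax6 of neural tissue, was called, and differences lay between -0.63 and 1.45. Of these 12, only 2 reached 1 FPKM in MEFs, so most could not be called lower. Outside these lists, the neural factor Olig2 and the endothelial adhesion molecule Pecam1, which pluripotent cells also express, were called higher (differences 3.01 and 3.95) while the other markers of nerve and endothelium were not.

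Across all transcripts of at least 300 bases in which both lines passed the threshold, the 10 largest increases were Dppa5a, Tdgf1, Zfp42, Utf1, Upp1, Bex1, Gm6083, Pou5f1 (NM_001252452), Slc2a3 and Epcam, with differences from 11.07 to 7.39. Upp1, uridine phosphorylase, went from under 0.001 FPKM in MEFs to 367 and 196. The 10 largest decreases were Lyz2, Col3a1, Postn, Bgn, Lyz1, Col1a2, Fbln2, Ptn, Lox and Thbs2, with differences from -11.11 to -8.29, of which 7 encode matrix proteins or their modifying enzyme and 2 are lysozymes. Reads that aligned to several places were discarded by the authors, so values of near-identical copies such as Lyz1 and Lyz2, and of the predicted genes Gm6083 and Gm6793, are uncertain. The most abundant called transcripts in the iPS lines were Dppa5a, Ptma, Npm1, Hsp90aa1 and Gm6793. Npm1, a nucleolar chaperone, was at 2321 and 2002 FPKM against 286, and the heat shock protein Hsp90aa1 at 1829.8 and 2109.6 against 136. In MEFs they were Lyz2, Fth1, Col1a2, Lgals1 and Bgn, with the iron store Fth1 at 3122 FPKM against 683 and 598. A secreted galectin, Lgals1, was at 69.5 and 554 against 2634.

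Some genes had transcripts called in both directions. Among the 4803 genes with several transcripts of at least 300 bases, 16 had 1 transcript called higher and another called lower, a count that rests on how Cufflinks divides reads among overlapping transcripts. In order of the smaller of the opposing differences, the first 5 were Tpm1, Fgfr1, Rtn4, Gngt2 and Lima1. For the fibroblast growth factor receptor Fgfr1, NM_010206 was at 9.09 and 15.9 FPKM in the iPS lines against 0.00871 in MEFs, while NM_001079909 was at 0.582 and 1.21 against 59.1. For tropomyosin, NM_001164251 of Tpm1 was at 19.6 and 59.5 FPKM against 0.886, opposite to NM_024427 above. The cytoskeletal Lima1 exchanged NM_023063 (79.1 FPKM in MEFs, 1.26 and 7.74 in iPS) for NM_001113545 (3.35 in MEFs, 35.2 and 19.9 in iPS). Both iPS lines gave the same direction for these transcripts. Summed over its transcripts, each of the 5 genes was lower in both iPS lines than in MEFs. Tpm1 summed to 94.5 and 562 FPKM against 782 in MEFs, and Lima1 to 36.4 and 27.7 against 82.5. For Rtn4, which encodes the reticulon Nogo, NM_194051 was at 18.4 and 16.004 FPKM in the iPS lines and under 0.001 in MEFs, but also low in the ESC lines at 0.370 and 0.124.

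Another such gene was Dnmt3a, named here after its values were seen because its isoforms are known to differ between pluripotent and somatic cells. NM_153743 was at 22.5 and 15.4 FPKM against 1.19 in MEFs, and NM_007872 was under 0.001 FPKM in both iPS lines against 3.69 in MEFs. The ESC lines held both, with NM_007872 at 4.65 and 1.88 FPKM. All 4 Nanog transcripts were called higher, and the highest MEF value among them was 1.09 FPKM, for NM_001289831.

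MicroRNA hairpins are shorter than the fragments of such libraries, so their values are the least certain here. ESC microRNAs and let-7 are known to act in opposite directions on the pluripotent cell cycle. Mature sequences (RefSeq, GRCm38.p6) of 1 arm each are printed 5′ to 3′ for the called hairpins that the table holds, which leaves out Mir145. The seed, bases 2 to 8, is in capitals to show which share target preference. The other arms are not printed, and the hairpin values do not tell which arm was made.
miR-295-3p: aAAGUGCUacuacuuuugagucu
miR-290a-3p: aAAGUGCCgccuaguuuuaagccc
miR-302c-3p: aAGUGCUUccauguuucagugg
miR-214-3p: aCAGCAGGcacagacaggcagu
miR-199a-3p: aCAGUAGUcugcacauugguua
let-7i-5p: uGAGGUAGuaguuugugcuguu
The 3 microRNAs of pluripotent cells share the letters AGUGC in the seed, and the seed of miR-295-3p is shared by 5 members of these families in the table, which are miR-295-3p itself, miR-291a-3p, miR-294-3p, miR-302b-3p and miR-302d-3p. Of the 12 ESC hairpins, Mir295, Mir290 and Mir302c were called higher, but in each case from 1 line: Mir295 was at 46.96 FPKM in iPS.1 and under 0.001 in iPS.2, Mir290 at 20.1 and 0, and Mir302c at 0 and 22.7. All 12 were listed at 0 in MEFs. Of the 12 measured fibroblast microRNA genes, 5 were called lower and none higher. The other 7, among them Mirlet7a-1, Mirlet7b, Mirlet7c-1, Mir21 and Mir143, were under 1 FPKM in MEFs and could not be called lower. Mir214 was at 163 FPKM in MEFs (bounds 91.8 to 234) and listed at 0 in both iPS lines. Mir199a-1 (46.4 FPKM), Mirlet7i (36.1) and Mir145 (23.2) were also listed at 0 in both lines, but their MEF bounds start at 0. The host gene Mir22hg was at 1.68 and 5.19 FPKM against 26.1.

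A gain or loss of a whole chromosome would shift its median, whereas a change of part of it need not. Between iPS.1 and iPS.2 the median difference over transcripts at 5 FPKM or more lay between -0.04 and 0.03 on 20 chromosomes. Against MEFs it ranged from -0.03 (chromosome 19) to 0.48 (chromosome 3) in iPS.1, with 0.18 on the X chromosome. In iPS.2 it ranged from -0.03 (chromosome 19) to 0.55 (chromosome 18). These ranges stand beside the shift of 0.24 in expressed transcripts. Against the ESC mean the range was -0.09 to 0.05 in iPS.1 and -0.05 to 0.10 in iPS.2.

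**Figure D5:**
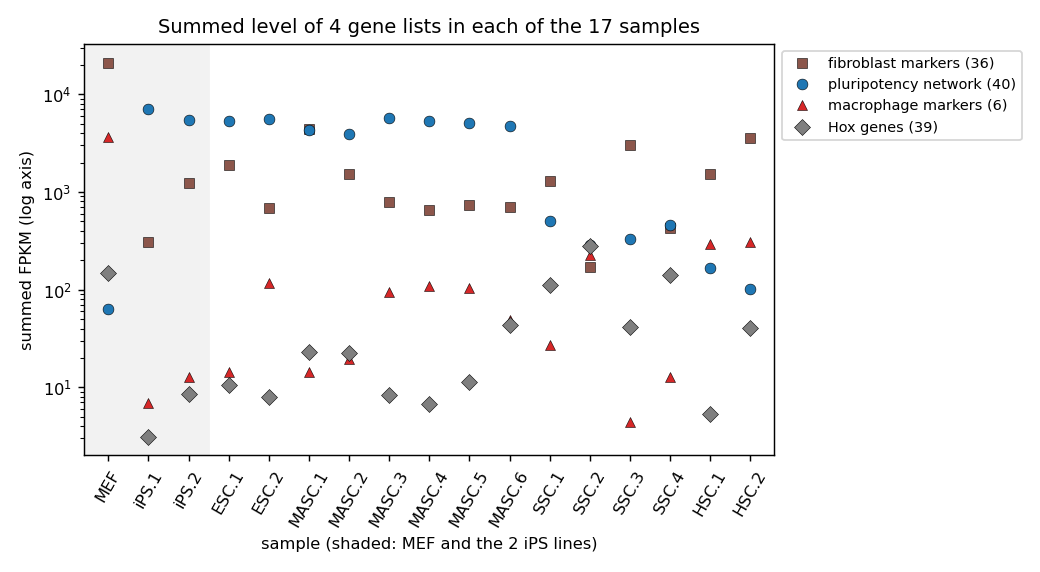
Summed FPKM of the fibroblast, pluripotency, macrophage and Hox lists in each of the 17 samples on a log axis, with the 3 samples compared here shaded. MEFs have the highest fibroblast and macrophage sums and the lowest pluripotency sum of the 17, and iPS.1 has the lowest Hox sum.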

How the data were processed

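RNA was sequenced from 2 iPS lines and 1 MEF sample, of 17 samples in all. The authors extracted total RNA, prepared Illumina TruSeq libraries, aligned reads to mm9 with TopHat2 (version 2.0.11 in the submitters' processing notes), excluded duplicates and reads with several alignments, and estimated FPKM per RefSeq transcript with Cufflinks (version not given in the sources used here), with upper-quartile and GC correction. The deposited files hold FPKM with lower and upper bounds and the coverage of each transcript, a signal whose ratio to FPKM served as the measure of depth. The numbers of reads were not used here.

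Groups came from the sample labels. Of 33262 entries per file, 32661 carried an NM_ or NR_ identifier followed by digits only, and 32659 had an estimate in the 3 samples. Values were log2(FPKM + 1) transformed, and the mean of the iPS lines minus MEF was called at 2 or more in either direction. With 1 MEF sample no test was run, and the bounds cover the error of the estimate within a library only. For counts of genes, 1 transcript per symbol was used, that with the highest mean level. Named genes were those of the lists, all Hox genes, the 10 largest differences in each direction among transcripts of at least 300 bases called in each line (1 per symbol), the 5 most abundant called transcripts of each cell type, the first 5 genes with transcripts called in both directions, the microRNA lists, and promoters of pluripotency genes with an octamer match. Genes named outside this rule are said to be so, and a few genes of the lists enter the counts but are not reported here by name. The members and lists were chosen with earlier results of these data known. Alternatives were a pseudocount of 0.1, a filter at 1 FPKM, quantile normalization, a difference of 1, each line past the threshold, Cufflinks bounds apart, transcripts of at least 300 bases, 1 transcript per symbol, FPKM summed per symbol (added after seeing the data) and leaving out either iPS line. Promoter and microRNA sequences are from RefSeq (GRCm38.p6), and no coordinates were converted from the mm9 build of the files. Python 3.11.15 with pandas 2.3.3, numpy 2.4.6 and matplotlib 3.10.9 was used, and the calling step was tested on simulated data.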

Additional observations from a re-analysis of the deposited data

Results flagged for a closer look

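Across the series, 2 summed levels were flagged as apart from the others of their group by Dixon's criterion, which chance meets in about 1 in 20 groups. As there were several lists and groups, some such sums arise by chance, and the 2 are not a full list. The summed FPKM of the fibroblast markers was 4379 in MASC.1, far above the other 5 MASC lines and second to MEFs in the series. The summed FPKM of the macrophage markers was 227 in SSC.2, above the other 3 SSC cultures. These were not the only sums that stood apart by the same criterion. The glycolysis sum was 11594 FPKM in MASC.2 against a median of 5204 over the MASC lines. The MHC and interferon sum was 1936 FPKM in MASC.1 against a MASC median of 814. None of these samples enters the comparison of iPS lines with MEFs, and what set these libraries apart was not tested.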

How the results depend on the processing

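No alternative changed the sign of a called named difference where it was computed, but FPKM summed per symbol covered only 238 of the 270 called named transcripts. It left out transcripts such as NM_001164251 of Tpm1, whose difference is opposite to that of its gene's sum. Differences that were not called could change sign, as those of Msx2, Tgfb2 and Tdrd1 did with 1 of the iPS lines left out. The call rests on the pseudocount and the threshold: 1680 higher and 1781 lower transcripts became 3701 and 3459 with a pseudocount of 0.1, and 4836 and 4106 at a difference of 1, whose construction admits weaker and smaller changes. The 13 Hox genes called became 31 and 24 under the same settings. The 19 adhesion and actin genes became 12 when each iPS line had to pass by itself. Quantile normalization gave 1604 higher and 1880 lower transcripts, and Cufflinks bounds apart gave 1590 and 1696. Leaving out either iPS line gave 1658 to 1759 higher and 1562 to 2032 lower transcripts, 38 to 38 pluripotency, 33 to 36 fibroblast, 14 to 16 mesenchymal, 22 to 27 epithelial, 12 to 23 adhesion and actin, and 12 to 14 Hox genes. Of 270 called named transcripts, 29 fell under the threshold without iPS.1 and 7 without iPS.2. No paired analysis was possible because the comparison came from no test and MEF had 1 sample. MEF has no replicate, so differences near 2 have no error for the MEF side, and values whose Cufflinks bounds start at 0 set a floor that the files do not resolve further. Depth in reads is unknown.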
